A study of Mus musculus with 68 samples.

Results

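Potassium channel subunits were taken as the genes whose array symbol begins with Kcn, with 3 further Kcn genes left out by the rule and not analysed here. Of 18193 genes measured by a probe set with a single gene symbol, 81 were such members, and they were covered by 164 of the 45037 probe sets tested. Each gene was represented by the probe set with the highest mean log2 signal over all arrays, and 35 members had 1 probe set only. By subfamily there were 13 Kv alpha subunits, 9 modulatory Kv subunits, 6 EAG/ERG subunits, 3 KCNQ subunits, 13 inward rectifiers, 12 two-pore subunits, 7 calcium- or sodium-activated subunits, 15 auxiliary subunits and 3 long noncoding RNAs that carry a Kcn symbol.

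Potassium channels set the resting potential of neurons and glia and end each action potential. Voltage-gated (Kv) channels are tetramers of alpha subunits, and modulatory or silent Kv subunits form no channel alone but change the channels they join. Inward rectifiers and two-pore channels pass background current, calcium- and sodium-activated channels couple firing to ion entry, and auxiliary subunits such as Kv beta subunits and Kv channel-interacting proteins (KChIPs) control gating and transport to the membrane. Cerebellar Purkinje and granule cells and cortical neurons are known for different sets of these subunits.

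Each of 68 arrays held RNA from the cerebellum or the cerebrum of 3 mice pooled, and every one of the 34 combinations of genotype, region and age was represented by 2 such pools. WT mice (FVB strain) were killed at 0, 10 and 20 days and at 4, 12 and 18 wks. PS-/- mice (FVB) lack prosaposin, the precursor of the saposins that activate lysosomal sphingolipid breakdown, and were sampled on days 0, 10 and 20 and again on day 25. PS-NA mice (FVB, 0 days and 4, 12 and 18 wks) carry a prosaposin transgene on the knockout background and make reduced amounts of prosaposin. 4L/PS-NA mice (4, 12 and 18 wks) carry a further homozygous allele on top of the PS-NA state. Their background is mixed, with 50% FVB, 25% C57BL/6 and 25% 129SvEvBrd. Strain and genotype therefore cannot be told apart in the comparisons of 4L/PS-NA mice with WT or with PS-NA mice. PS-/- mice of 25 days were set against WT mice of 4 wks. The labels do not say more about how pools were formed, and p-values measure the spread between these pools.

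The deposited signals are linear intensities scaled to a trimmed mean of 1500 on each array, whose medians lay between 255.7 and 476.2. Psap, which encodes prosaposin, was at 20314 to 54680 in WT cerebellum and at 386 to 1419 in PS-/-, 3685 to 8758 in PS-NA and 3049 to 7587 in 4L/PS-NA cerebellum. The 2 pools of a group correlated at a median of 0.949. The exception was 4L/PS-NA cerebellum at 4 wks, with a correlation of 0.821 against 0.927 or more in every other group. Pool 2 of that group had a median correlation of 0.82 with other arrays of its region and age, where the next lowest array had 0.921. The differences of subunits named for 4L/PS-NA cerebellum are given with and without this pool. The ratio of 3' to 5' signal of actin, a measure of how complete the labelled transcripts are, also differed by age. It was 0.21 to 0.3 on the log2 scale in the 4 newborn WT pools, 0.42 to 0.59 in adult WT cerebellum and 0.57 to 0.86 in adult WT cerebrum.

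Probe sets differ in how well they bind their transcripts, so signals are compared between samples and not between genes. Differences below are in log2(signal + 16) after quantile normalization, with the standard error (SE) of the limma fit, and a member was called where its p, adjusted over all 45037 probe sets, was under 0.05. In 11 of 81 members the highest group mean was below the lowest array median, Kcne1, Kcnj1 and Kcnn3 among them, and for these little can be said.

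Maturation from birth to adulthood (mean of 4, 12 and 18 wks minus 0 days) changed close to 1 in 2 subunits in each region of WT brain. In cerebellum 38 of 81 members were called, 24 higher and 14 lower in adults, where 24.3% of all probe sets were called. In cerebrum 39 were called, 32 higher and 7 lower, where 23.7% of all probe sets were called. With 1 probe set per gene, 31.4% and 30.8% of all genes were called in cerebellum and cerebrum. The share of members higher in adult cerebrum was 39.5%, and that of all genes was 14.7%. In cerebellum the shares higher were 29.6% and 14.6%. The shares lower in adults were 17.3% of members and 16.8% of all genes in cerebellum, and 8.64% and 16.1% in cerebrum. The median log2 difference of the members was 0.24 in cerebellum and 0.72 in cerebrum, beside -0.05 and -0.04 over all genes. Tissue pieces were measured whole, so more cells of a type and more RNA per cell cannot be told apart. Markers of other cells moved at the same time. All 9 oligodendrocyte markers rose in both regions, and their summed signal went from 28723 to 29371 in newborn cerebellum to 167421 to 285528 in adults. In both regions 6 of 7 markers of immature or dividing cells fell, and in cerebellum their sum fell from between 68389 and 85368 to between 3734 and 5853. The part of these shifts in the changes of single subunits was not tested.

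A set of 18 subunits rose in both regions. No count of genes called in both regions, in the same or opposite directions, was made over all genes. The widest rises in the set were those of Kcnj9, Kcng4 and Kcna1 in cerebellum and of Kcna1, Kcnab2 and Kcnj9 in cerebrum. The set held 2 of 7 Shaker-type Kv alpha genes and all 3 Kv beta genes. Kcna1, which encodes an alpha subunit that limits repetitive firing of axons, had signals of 873 and 649.8 in the newborn cerebellar pools and of 17125, 18366 and 20941 (lowest, median, highest of 6 pools) in adults. In cerebrum it went from 461.5 and 492.6 to 8211, 10978 and 11474. Adult and newborn pools were far apart in both regions. The log2 difference was 4.65 (SE 0.15, adjusted p = 1.08e-14) in cerebellum and 4.30 (SE 0.15, adjusted p = 1.99e-14) in cerebrum. Kcna2, its usual partner in juxtaparanodal channels, rose by 2.92 in cerebellum (SE 0.27, adjusted p = 3.56e-08) and by 2.80 in cerebrum (SE 0.27, adjusted p = 6.9e-08). The Kv beta genes, whose products bind these alpha subunits in the cytoplasm, rose as well. Kcnab1 rose by 2.68 in cerebellum and 2.80 in cerebrum, and Kcnab3 by 3.67 in cerebellum (SE 0.57, adjusted p = 4.62e-05) and 3.77 in cerebrum (SE 0.57, adjusted p = 3.51e-05). Kcnab3 was dim at birth, at 111.5 and 34.9 in cerebellum and 124 and 14.1 in cerebrum, and stood at 622.5 or more in every adult pool. Kcnab2 rose more in cerebrum than in cerebellum, by 3.99 (SE 0.25, adjusted p = 1.23e-10) against 2.26, and this difference between regions was itself called. No other Kv alpha gene of the Shaker type rose in cerebellum, where Kcna3, Kcna4, Kcna6 and Kcna7 were not called and Kcna5 fell.

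Among inward rectifiers the G protein-gated subunits Kcnj9 and Kcnj3 rose in both regions. Kcnj9 was at 261.4 and 147.3 in newborn cerebellum and at 4128, 6760 and 7809 (lowest, median, highest) in adult cerebellum. In cerebrum it went from 417 and 322.5 to 4316, 6735 and 9213. Every adult pool was above every newborn pool, by a log2 difference of 4.94 (SE 0.26, adjusted p = 8.74e-12) in cerebellum and 3.96 (SE 0.26, adjusted p = 2.81e-10) in cerebrum. Kcnj3 rose by 2.35 and 1.75. Kcnj6, a further G protein-gated subunit, was not called, at -0.05 and 0.13, and Kcnj5 was not called either and was among the dim members. Kcnj16, an inward rectifier subunit of glia and epithelia, rose by 1.69 and 2.17.

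**Figure D1:**
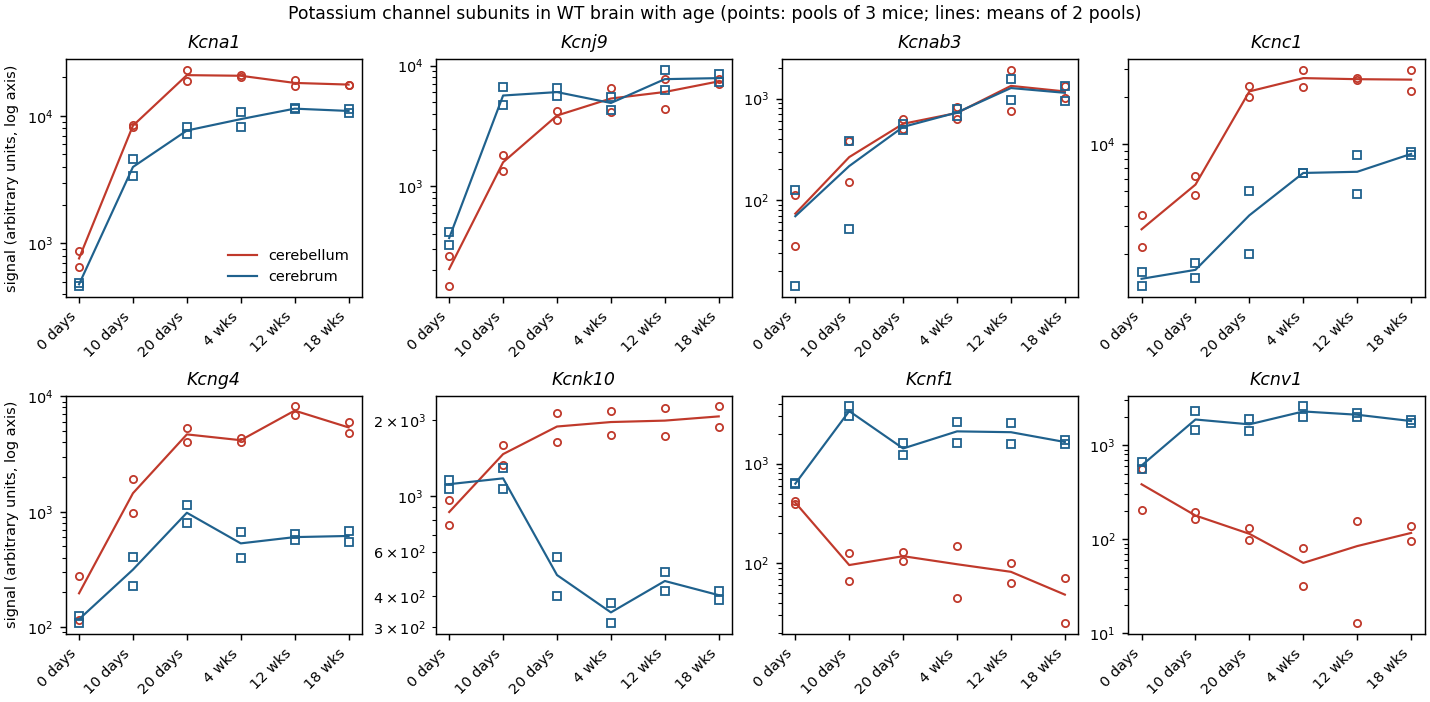
Signal in arbitrary units on a log axis against age in WT mice for 8 subunits, with 1 point per pool of 3 mice (circles, cerebellum; squares, cerebrum) and lines through the means of 2 pools. Kcna1, Kcnj9 and Kcnab3 rise in both regions, Kcng4 rises to 4001 or more in adult cerebellum, and Kcnf1 and Kcnv1 part after birth, up in cerebrum and down in cerebellum.

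The other shared risers came from several subfamilies. Kcnc1, a Kv alpha subunit of fast-spiking neurons, had signals of 3514 and 2211 in newborn cerebellum and of 21762, 25850 and 29621 (lowest, median, highest) in adult cerebellum, a log2 difference of 3.23 (SE 0.27, adjusted p = 7.36e-09). In cerebrum it rose by 2.33. Kcng4, a modulatory subunit that joins other Kv alpha subunits, rose by 4.86 (SE 0.31, adjusted p = 1.45e-10) in cerebellum and by 1.84 in cerebrum. Of the calcium-activated channels Kcnma1, the pore subunit of large-conductance (BK) channels, rose by 0.64 and 1.29, and Kcnt1, a sodium-activated pore subunit, by 0.99 and 1.24. The list was completed by Kcnip3, Kcnip4, Kcnh1, Kcnk1, Kcnk3 and Kcnk12. Where called members had further probe sets, these did not go against the call. In cerebellum 28 of 38 called members had others, 23 had another probe set called the same way and 0 had one called the opposite way, and in cerebrum the counts were 26, 23 and 0.

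A small group fell in both regions, and it held Kcnh8, Kcnmb2 and Kcnu1. Kcnu1, a pore subunit best known from sperm, had signals of 1119 and 1082 in newborn cerebellum and 83.2, 194 and 309.5 (lowest, median, highest) in adult cerebellum. In cerebellum Kcnu1 thus fell by 2.70 (log2, SE 0.33, adjusted p = 1.99e-06), and in cerebrum it fell by 1.93 (SE 0.33, adjusted p = 0.000133). Kcnh8, an ELK-type voltage-gated subunit, fell by 1.82 in cerebellum (SE 0.44, adjusted p = 0.00385) and by 2.01 in cerebrum (SE 0.44, adjusted p = 0.00163). Kcnmb2, a beta subunit that inactivates BK channels, fell by 1.63 and 1.44. In cerebrum the further members called lower were Kcnk10 (-1.62), Kcnip1 (-0.96), Kcne1l, an auxiliary subunit (-1.14), and the noncoding RNA Kcnmb4os2, antisense to Kcnmb4, whose difference of -1.07 (SE 0.32, adjusted p = 0.0179) became 0.05 with the actin ratio as a covariate.

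The actin ratio and age could not be separated well in these arrays, since newborn and adult pools do not overlap in it. With the ratio as a covariate 22 members were called in cerebellum and 9 in cerebrum. Calls over all probe sets fell as well, from 10960 to 5108 in cerebellum and from 10657 to 988 in cerebrum. Of the members given with an adjusted p above, Kcna1, Kcna2 and Kcnj9 in both regions, Kcnab2 in cerebrum, and Kcng4, Kcnab3, Kcnc1 and Kcnu1 in cerebellum kept the call under every alternative tried, and Kcnh8 in both regions and Kcnab3 and Kcnu1 in cerebrum lost it with this covariate.

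Members called higher in adult cerebrum had mostly covered the larger part of their newborn-to-adult change by 10 days. As a description, the distance from birth was expressed as a percent of the full newborn-to-adult log2 change of each gene. The 32 members higher in adult cerebrum had covered a median of 88% of their change at 10 days, and 30 of them at least 50%. The 24 members higher in adult cerebellum had covered a median of 54.8% at 10 days, 15 of them at least 50%, and 92.6% at 20 days. In the 18 members that rose in both regions, the median at 10 days was 71% in cerebrum and 54.8% in cerebellum, and 13 of 18 were further along in cerebrum. The exceptions in cerebrum were Kcnc1, with 6% of its change at 10 days and 51.2% at 20 days, and Kcnab3, with 34.6% and 72.3%. The cerebral signals of Kcnc1 were 1758 and 1400 at 10 days and 5047 and 1981 at 20 days. Kcnip4 was slow in cerebellum, with 15.7% at 10 days and 40.8% at 20 days. The share passes the full change where a gene was highest at 10 days and fell later, as for Kcnf1 in cerebrum at 154.4%. For such a gene it does not measure the progress of a rise. The shares were computed for members only and were not tested. Whether this timing differs from that of other rising genes is therefore not known.

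After 4 wks few changes were called. From 4 to 18 wks no member was called in cerebellum, where 9 had an unadjusted p under 0.05 and 0.333% of all probe sets were called by limma. In cerebrum 2 members were called, where 2.83% of all probe sets were. Kcns1, a modulatory subunit, had cerebral signals of 224 and 125 at 4 wks, 739 and 544 at 12 wks and 884 and 592 at 18 wks. The 18-wk pools lay above the 4-wk pools, by 2.16 (SE 0.58, adjusted p = 0.0464). Kcnk7, a two-pore subunit that gives no current by itself, had signals of 445.5 and 273 at 4 wks and 58.5 and 28.6 at 18 wks, a difference of -2.71 (SE 0.64, adjusted p = 0.0254). Both calls were lost when any 1 of the 4 pools at 4 or 18 wks was left out, and with the actin ratio as a covariate.

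Maturation took different courses in the 2 regions for 22 of 81 members by the test of the difference itself (27.2%), where 5.64% of all probe sets and 8.21% of all genes were called. In 6 of them the change was more upward in cerebellum and in 16 more upward in cerebrum. With arrays centred on the median in place of quantile normalization, the split was 9 to 13 among 22 called, and the median of all probe sets was shifted by 0.15. Kcnk10 rose in cerebellum and fell in cerebrum, while Kcnf1, Kcnip2, Kcns2, Kcnt2 and Kcnv1 were called lower in cerebellum and higher in cerebrum. Without WT cerebrum 0 days pool 2 the number called was 14, and with the actin ratio as a covariate it was 11.

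Kcnk10 encodes a mechanically and lipid-gated two-pore channel of the TREK type. At birth its signals were 962 and 763.5 in cerebellum and 1159 and 1069.7 in cerebrum, and the region difference was not called (-0.41). In adults they were 1741, 2029 and 2272 (lowest, median, highest) in cerebellum and 312.6, 402 and 498 in cerebrum. Maturation differed between regions by 2.78 (SE 0.32, adjusted p = 9.41e-06), and no cerebral adult pool came near a cerebellar one. In cerebrum the fall came after 10 days, when the pools were still at 1287 and 1063, and at 20 days they were at 570.3 and 398. Kcnk12, Kcnk3 and Kcnk1, two-pore subunits of the THIK, TASK and TWIK types, also moved upward in cerebellum relative to cerebrum, by 2.02 (adjusted p = 0.00451), 1.49 (adjusted p = 0.0483) and 1.16 (adjusted p = 0.00483). The value for Kcnk3 lost its call in 14 of 16 fits that left out 1 pool.

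Kcnf1 and Kcnv1 are modulatory Kv subunits that are silent alone. Kcnf1 was at 418 and 393 in newborn cerebellum and at 634.7 and 622.7 in newborn cerebrum. Adult pools were at 25.2, 67.1 and 150 (lowest, median, highest) in cerebellum and 1561, 1666 and 2621 in cerebrum. The region difference was not called at birth (-0.75) and the adult pools did not come near each other, with a difference in maturation of -3.84 (SE 0.53, adjusted p = 8.47e-05). Its cerebral signal was highest at 10 days, at 3749.5 and 2991. Kcnv1 likewise fell in cerebellum and rose in cerebrum, with no peak at 10 days. Its newborn pools were at 563 and 206 in cerebellum and 662 and 554 in cerebrum, and its adult pools at 13 to 157 in cerebellum and 1739 to 2578 in cerebrum. The difference in maturation was -3.67 (SE 0.66, adjusted p = 0.00123). The adult cerebellar pools of Kcnf1 and Kcnv1 were below the lowest array median of 255.7, so that the sizes of both differences depend on the constant added to the signal.

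Kcnj4, a strong inward rectifier of forebrain neurons, rose by 2.77 in cerebrum and was at -0.99 and not called in cerebellum, a difference of -3.76 (SE 0.75, adjusted p = 0.00334). Kcnt2, a sodium-activated pore subunit, rose by 1.67 in cerebrum and fell by 1.60 in cerebellum, a difference of -3.27 (SE 0.62, adjusted p = 0.00225). Of the 6 EAG/ERG subunits 3 were called for a difference between regions, all more upward in cerebrum. Kcnh5 and Kcnh7 rose by 2.33 and 1.76 in cerebrum and were at -0.95 and -1.35, not called, in cerebellum, and the differences were -3.28 for Kcnh5 (SE 0.68, adjusted p = 0.00463) and -3.10 for Kcnh7 (SE 0.71, adjusted p = 0.0102). Their newborn cerebral pools, and the newborn and adult cerebellar pools of Kcnh5, were below the lowest array median of 255.7. So were the adult cerebellar pools of Kcnj4 and Kcnt2. The sizes of the differences of Kcnj4, Kcnt2, Kcnh5 and Kcnh7 therefore depend on the constant added to the signal. Kcnh3 rose by 2.64 in cerebrum and was at 0.58 in cerebellum, a difference of -2.05 (SE 0.51, adjusted p = 0.0166). The other EAG/ERG members did not differ by this test, with Kcnh1 rising by 2.18 in cerebellum and 2.57 in cerebrum, Kcnh8 falling in both, and Kcnh2 at 0.42 in each and not called. Kcnq3 and Kcnq5, which form the M-current channels that damp neuronal firing, fell in cerebellum by 0.87 and 1.75 and were not called in cerebrum, at 0.78 and 0.72. The cerebellar pools of Kcnq3 were at 4989 and 1583 at birth and at 1166 to 2177 in adults, and so overlapped. For both the difference between regions was called, at -1.65 and -2.47. In the opposite direction stood Kcng4 at 3.02 (SE 0.44, adjusted p = 0.000128) and the inward rectifier Kcnj12, which rose by 2.83 in cerebellum and was at 0.27 in cerebrum, a difference of 2.57 (SE 0.36, adjusted p = 9.43e-05).

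**Figure D2:**
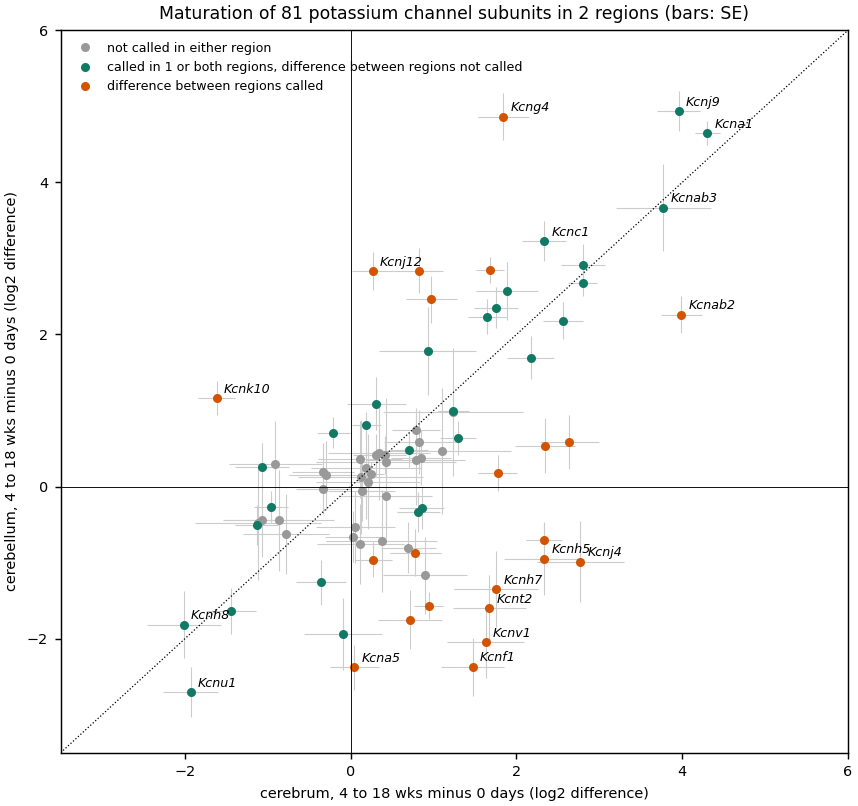
Log2 difference from 0 days to the mean of 4, 12 and 18 wks in WT cerebellum (vertical) against that in WT cerebrum (horizontal) for 81 members, with SE bars and a dotted line of equal change. Kcna1, Kcnj9 and Kcnab3 lie near the line at 3.67 or more, and the 22 members called for a difference between regions (orange) include Kcng4, Kcnj12 and Kcnk10 above the line and Kcnf1, Kcnv1 and Kcnj4 below it.

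Cell type markers that define the regions moved in the same comparison. Of 6 granule neuron markers 5 and of 7 Purkinje cell markers 5 rose more in cerebellum, and 2 of 6 telencephalic neuron markers were more upward in cerebrum. So were 5 of 9 oligodendrocyte, 4 of 9 microglia, 2 of 8 astrocyte markers and 2 of 7 markers of immature or dividing cells, and no marker of these lists was called in the other direction. The 23 genes of sodium, HCN and calcium channels measured as a background list had 1 member more upward in cerebellum and 5 more upward in cerebrum, and 12 were called higher and 8 lower with maturation in cerebellum, against 12 and 5 in cerebrum. Of 17 partner genes of potassium channels, 11 were called higher and 1 lower in cerebellum, and 9 and 2 in cerebrum. The part of cell composition in the subunits' course was not tested.

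Few subunits were called between the regions at birth, and many in adults. The region difference at birth (cerebellum minus cerebrum) was called for 3 members, where 1.15% of all probe sets were called. Kcnc4, a Kv alpha subunit of fast-inactivating channels, had signals of 2092 and 2738 in newborn cerebellum and 798 and 1074.7 in newborn cerebrum, a difference of 1.31 (SE 0.29, adjusted p = 0.024). Kcns2 had 2577 and 2929.8 against 1279 and 1050.2, a difference of 1.19 (SE 0.22, adjusted p = 0.00494). Kcng1 was lower in cerebellum, at 137 and 37 against 490.4 and 566, a difference of -2.76 (SE 0.52, adjusted p = 0.00657). In these 3 genes the pools of the 2 regions did not overlap at birth. All 3 had other probe sets, and none of those was called. Kcng1 and Kcns2 lost the call with the mean of their probe sets, and Kcnc4 lost it in 4 of 9 alternatives. The calls rest on 4 pools. Without WT cerebellum 0 days pool 2, or without WT cerebrum 0 days pool 2, no member was called, and without WT cerebellum 0 days pool 1 there were 7.

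At 4 to 18 wks 38 of 81 members differed between regions (46.9%), 15 higher in cerebellum and 23 higher in cerebrum, where 19.2% of all probe sets and 24.9% of all genes were called. In 31 of the 38 the 6 cerebellar and 6 cerebral pools did not overlap. This was counted among members already called for the difference, and no such count was made over all genes. The count was 36 to 38 whichever adult pool was left out, and 30 with the actin ratio as a covariate. The 12 members named for this comparison kept their calls under every alternative and without any 1 pool. Of 12 two-pore subunits 4 were higher in cerebellum and 3 in cerebrum, and of 9 modulatory Kv subunits 2 were higher in cerebellum and 6 in cerebrum. No EAG/ERG or KCNQ member was higher in cerebellum, where 3 of 6 and 2 of 3 were lower.

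Kcng4 showed the widest difference in favour of cerebellum among the members. Its adult signals were 4001, 5372 and 8157 (lowest, median, highest of 6 pools) in cerebellum and 398, 603 and 682 in cerebrum, a difference of 3.29 (SE 0.22, adjusted p = 2.34e-10). Kcnj12 had 1927, 2189 and 2847 against 346, 383 and 517, a difference of 2.56 (SE 0.18, adjusted p = 5.45e-10). Neither gene had an overlap between regions. Kcnk10 followed at 2.37 (SE 0.16), Kcnc1 at 1.89 (SE 0.19, adjusted p = 1.12e-07), Kcnk3 at 1.77 (SE 0.22, adjusted p = 2.59e-06) and Kcnk12 at 1.71 (SE 0.21, adjusted p = 2.21e-06). The A-type channel genes Kcnd2 and Kcnd3, which open below spike threshold, were higher in cerebellum by 1.23 and 0.52, together with their calcium-binding partners Kcnip1 (1.12) and Kcnip4 (0.93).

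Kcnip2, a further KChIP, was on the side of the cerebrum. It had signals of 597, 852 and 1298 (lowest, median, highest) in adult cerebellum and 6622, 7870.3 and 11051 in adult cerebrum, a difference of -3.25 (SE 0.16, adjusted p = 1.9e-12). The KChIP genes were therefore divided between the regions, with Kcnip1 and Kcnip4 higher in cerebellum, Kcnip2 higher in cerebrum and Kcnip3 not called at -0.04. Kcnv1 stood at -4.67 (SE 0.33, adjusted p = 5.95e-10) and Kcnf1 at -4.59 (SE 0.27, adjusted p = 3.15e-11). Kcnj4 had signals of 41.5 to 212 in cerebellum and 1529 to 3131.5 in cerebrum, a difference of -4.37 (SE 0.38, adjusted p = 1.22e-08). Kcnt2 stood at -4.10 (SE 0.31, adjusted p = 1.97e-09) and Kcnq5 at -3.44 (SE 0.28, adjusted p = 4.29e-09), with 69 to 472 against 1968 to 2930 for Kcnq5. In each of these the cerebellar pools were under the cerebral pools without overlap. In adult cerebellum every pool of Kcnv1, Kcnf1, Kcnj4 and Kcnt2, the last at 28.5 to 83.6, was below the lowest array median of 255.7, so that the size and order of these 4 differences depend on the constant added to the signal. With 64 in place of 16 they were -3.97, -3.91, -3.78 and -3.33, all still called. Of the TREK-type genes, Kcnk2 was higher in cerebrum by 1.92 and Kcnk10 in cerebellum. The strong inward rectifiers Kcnj4 and Kcnj12 were split in the same way, and so were Kcnc1 and Kcnc2, with Kcnc2 at -2.37. In adult cerebellum 6 telencephalic neuron markers summed to 2316 to 3133, against 34182 to 56037 in cerebrum.

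**Figure D3:**
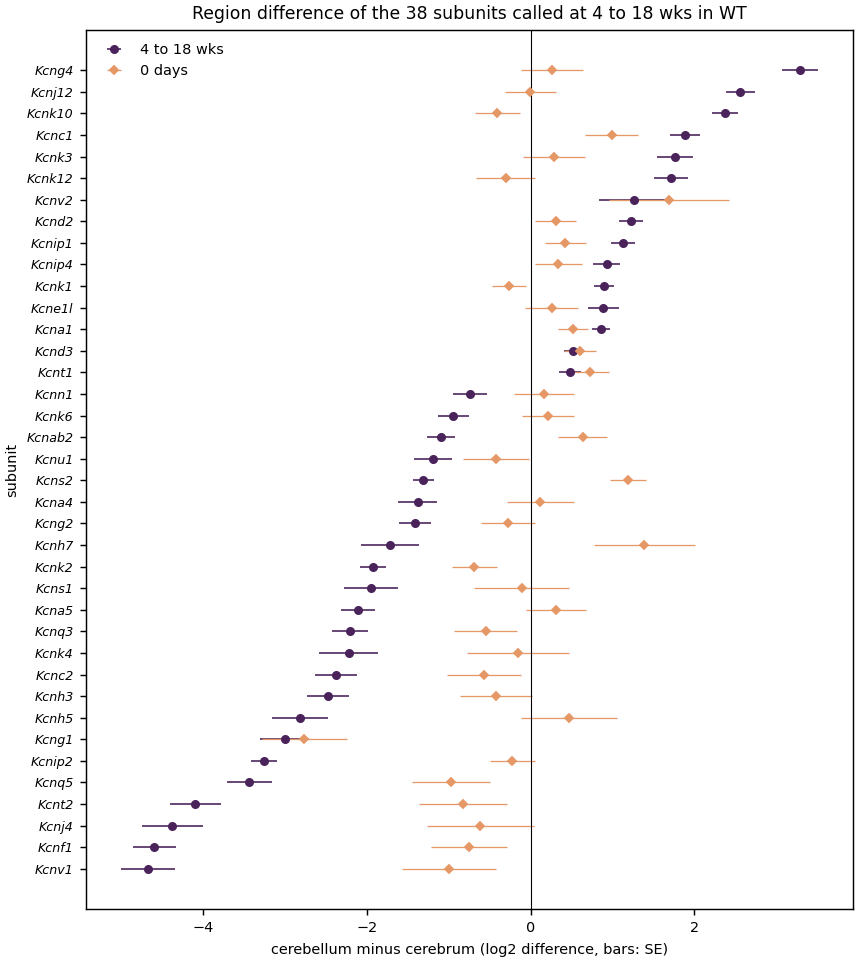
Cerebellum minus cerebrum in WT mice as a log2 difference with SE, at 4 to 18 wks (purple circles) and at 0 days (orange diamonds), for the 38 members called at 4 to 18 wks. The adult differences run from -4.67 for Kcnv1 to 3.29 for Kcng4, and the values at 0 days include -2.76 for Kcng1 and 1.19 for Kcns2. The members were picked by their adult call, and each value at 0 days rests on 2 pools per region.

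RefSeq promoter windows (build GRCm38.p6) were at hand for 62 of the 81 members, in 87 windows. The 250 bases before the annotated start are shown for a member that rose in both regions (Kcnj9), the member most biased to adult cerebellum (Kcng4) and one of those biased to adult cerebrum (Kcnf1), so that genes of opposite course can be read side by side. All are on the minus strand, at chr1:172329323-172329572, chr8:119635681-119635930 and chr12:17176889-17177138, and are printed 5′ to 3′ with a match to TATAAA in capitals.
Kcnj9: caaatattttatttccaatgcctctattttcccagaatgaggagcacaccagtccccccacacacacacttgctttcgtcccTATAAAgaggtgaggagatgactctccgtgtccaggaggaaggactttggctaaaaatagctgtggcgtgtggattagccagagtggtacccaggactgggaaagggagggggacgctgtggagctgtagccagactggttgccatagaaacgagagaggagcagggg
Kcng4: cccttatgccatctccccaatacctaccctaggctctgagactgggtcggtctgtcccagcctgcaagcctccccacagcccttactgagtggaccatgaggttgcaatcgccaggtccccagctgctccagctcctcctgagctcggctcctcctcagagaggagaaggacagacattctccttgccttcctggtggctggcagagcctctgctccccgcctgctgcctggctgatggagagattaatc
Kcnf1: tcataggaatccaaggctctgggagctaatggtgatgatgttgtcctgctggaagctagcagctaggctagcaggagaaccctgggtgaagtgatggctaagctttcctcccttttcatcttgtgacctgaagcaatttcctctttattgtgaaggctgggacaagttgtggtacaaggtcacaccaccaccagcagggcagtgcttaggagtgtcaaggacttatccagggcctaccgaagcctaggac
Of these windows Kcng4 had the highest G and C content, 60.4%, against 52% in Kcnj9 and 51.2% in Kcnf1, where all 32851 windows of the table had a median of 52.4% and those of the members 58.8%. Windows were searched on both strands for 4 short motifs, none of which contains another. The GC box motif GGGCGG was in 39 of 87 member windows (44.8%) and in 32.7% of all windows, and the E-box motif CAGATG in 15 (17.2%) and in 14.4% of all. The start-site motif TATAAA was in 2 (2.3%) and in 12.4% of all, and the cyclic AMP response motif TGACGTCA in 0 and in 1.55% of all. Several windows belong to 1 gene, and the counts were not tested. Among windows of members higher in adult cerebellum 4 of 15 held CAGATG, and among those higher in adult cerebrum 4 of 25. The cerebellar matches came from Kcnip1 and Kcnip4 alone, and the cerebral ones from Kcna4, Kcnh5, Kcnk2 and Kcnn1. Shares of windows are therefore not shares of genes.

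Few subunits were called in mice without prosaposin. In PS-/- cerebellum, averaged over ages, 1 of 81 members was called, where 0.613% of all probe sets were called. This was Kcnq1ot1, the imprinted noncoding RNA that lies antisense to Kcnq1. Its signals were 185, 476 and 811 (lowest, median, highest of 8 pools) in PS-/- and 353, 994 and 1603 in WT cerebellum, so that the groups overlapped, with a mean difference of -0.94 (SE 0.22, adjusted p = 0.0406). Its 5 other probe sets were not called. The call was lost in 11 of 16 fits that left out 1 pool and in 5 of 10 alternatives, among them the use of 20-day WT mice for the 25-day mutants. In PS-/- cerebrum no member was called by limma, where 7 had an unadjusted p under 0.05 and 1.83% of all probe sets were called. The smallest p values belonged to Kcnmb4, the neuronal beta subunit of BK channels (-0.25, SE 0.09, adjusted p = 0.203), to Kcng4 (-0.57, SE 0.22, adjusted p = 0.231) and to Kcnk6, a weak two-pore channel (0.39, SE 0.15, adjusted p = 0.234). In the same mice 7 of 9 microglia markers in cerebellum and 5 of 9 in cerebrum were called higher, and 5 of 9 and 7 of 9 oligodendrocyte markers were called lower.

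In PS-NA cerebellum 1 member was called, where 0.662% of all probe sets were. Kcnd3, a pore subunit of A-type channels, had signals of 4295, 5533 and 7085.5 (lowest, median, highest of 8 pools) in PS-NA and 6321, 7248 and 8243 in WT cerebellum. The groups overlapped at their ends, and the mean difference was -0.43 (SE 0.08, adjusted p = 0.00518). It kept the call in all 16 fits that left out 1 pool and lost it with arrays centred on the median, with the mean of its probe sets and in a fit over all arrays. Its 3 other probe sets were not called. In 4L/PS-NA cerebellum Kcnd3 was at 5086, 6279 and 12630, the highest in pool 2 at 4 wks, and the group overlapped with WT. In PS-NA cerebrum no member was called, where 5 had an unadjusted p under 0.05 and 0.278% of all probe sets were called. Kcnn3 (0.85, SE 0.32, adjusted p = 0.468), Kcnj6 (-0.64, SE 0.24, adjusted p = 0.468) and Kcnj8, a subunit of ATP-sensitive channels in vessels (0.38, SE 0.16, adjusted p = 0.548), had the smallest p values, and Kcnj6 was at 0.01 with the mean of its probe sets.

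In the cerebellum of 4L/PS-NA mice 7 members were called against WT, 3 higher and 4 lower, where 3.99% of all probe sets and 5.19% of all genes were called. The share of members was 8.64%. Higher were Kcnk2, Kcna5 and Kcnj4, and lower were Kcng4, Kcnj12, Kcnip1 and Kcnip4. With arrays centred on the median 5 were called, 3 higher and 2 lower. Without pool 2 at 4 wks, which stands apart from the other arrays, 9 were called, and 6 of the 7 were among them.

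Kcng4 was lower in 4L/PS-NA cerebellum at the later ages. Its signals at 4 wks were 4859 and 5476 in 4L/PS-NA and 4325 and 4001 in WT cerebellum. At 12 wks they were 3131 and 2942.5 against 8157 and 6869, and at 18 wks 1966 and 2257 against 5955 and 4789.6. The 2 groups did not overlap at 12 and 18 wks, while at 4 wks the mutant pools were not lower. The mean difference over ages was -0.78 (SE 0.15, adjusted p = 0.00524) with pool 2 at 4 wks and -0.83 (adjusted p = 0.0024) without it. PS-NA cerebellum had a similar value, -0.74 (SE 0.18, adjusted p = 0.0557), in a comparison that shares the WT arrays, and the direct comparison of 4L/PS-NA with PS-NA gave -0.06 (SE 0.22, adjusted p = 0.924), or -0.11 (adjusted p = 0.91) without that pool.

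Kcnk2, the second TREK-type channel, had signals of 1614, 2317 and 2732 (lowest, median, highest of 6 pools) in 4L/PS-NA and 1027, 1416 and 1508 in WT cerebellum. All mutant pools were above all WT pools, by a mean difference of 0.72 (SE 0.15, adjusted p = 0.00878) with pool 2 at 4 wks and 0.61 (adjusted p = 0.0102) without it. Kcng4 and Kcnk2 were the 2 members that kept the call in each of the 12 fits that left out 1 pool and under every alternative. Kcna5, a Shaker-type alpha subunit, had 306, 403 and 918 against 157, 226 and 303, with no overlap and a mean difference of 1.098 (SE 0.29, adjusted p = 0.0367). The highest value is that of pool 2 at 4 wks, and without it the difference was 0.86 (adjusted p = 0.0669). Kcnj4 was dim in both groups, at 113, 211 and 341 against 41.5, 64.8 and 212, with an overlap, and its difference was 1.13 (SE 0.30, adjusted p = 0.0391), or 1.29 (adjusted p = 0.0152) without that pool.

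Kcnj12 had signals of 631, 1363 and 1899 (lowest, median, highest) in 4L/PS-NA and 1927, 2189 and 2847 in WT cerebellum. There was no overlap, although the highest mutant and the lowest WT pool were close, and the difference was -0.94 (SE 0.25, adjusted p = 0.0419), or -0.62 (adjusted p = 0.0441) without pool 2 at 4 wks, which is the lowest value. Kcnip4 was at 1925, 6089.8 and 7081 against 5660.2, 9042 and 10138, a difference of -0.70 (SE 0.16, adjusted p = 0.0161), or -0.53 (adjusted p = 0.0152) without that pool. Kcnip1 was at 1794, 2331 and 4243 against 3335, 4115 and 5021, a difference of -0.64 (SE 0.16, adjusted p = 0.0251), or -0.64 (adjusted p = 0.0225) without it. A second probe set of Kcnip1 was called in the same direction, and the other probe sets of Kcnip4 were not called. Kcnip1 lost its call in 5 of 9 alternatives, the mean of probe sets among them, and in 7 of 12 fits without 1 pool. Kcnip4 lost its call in 1 of 9 alternatives and in 5 of 12 such fits. For both KChIP genes the groups overlapped, and for Kcnip1 the 12- and 18-wk mutant pools were all below the WT pools.

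**Figure D4:**
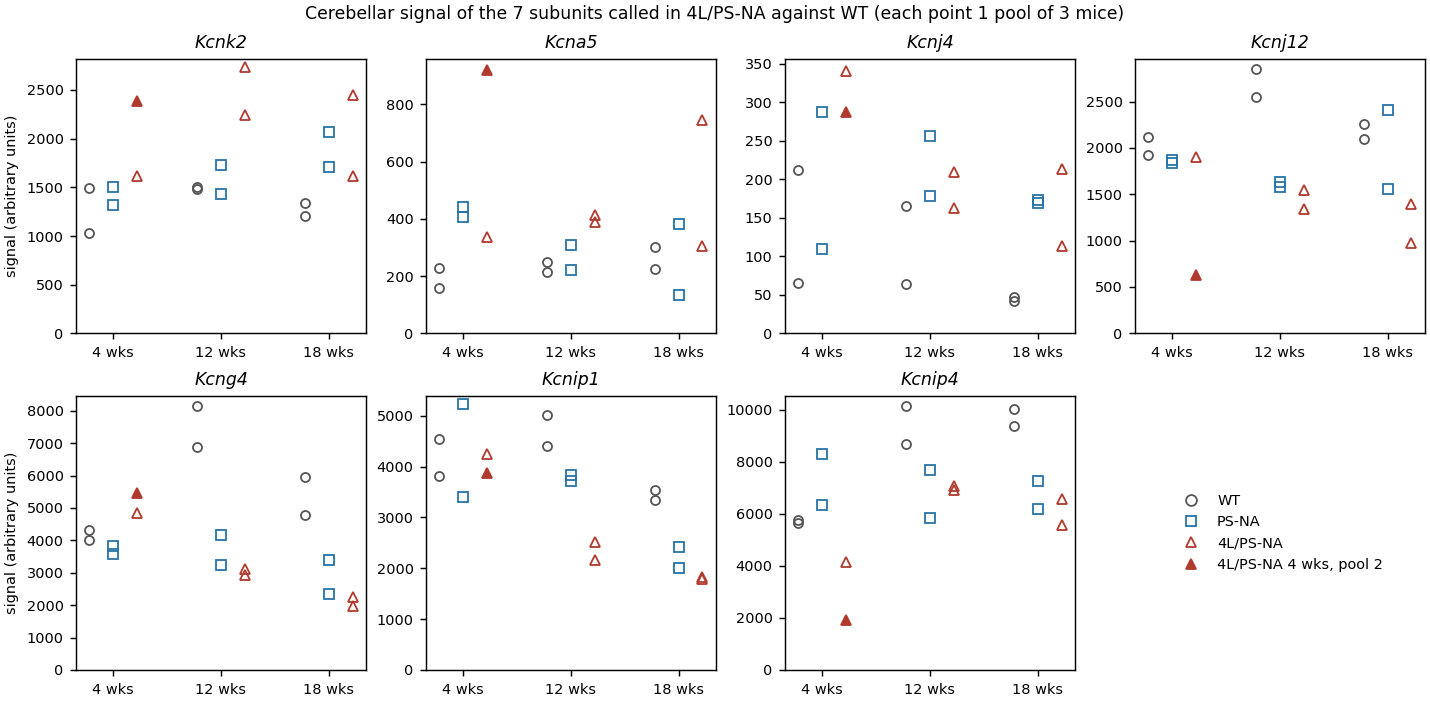
Signal in arbitrary units on a linear axis from 0 in cerebellum at 4, 12 and 18 wks for the 7 members called in 4L/PS-NA against WT mice, with 1 point per pool (circles WT, squares PS-NA, triangles 4L/PS-NA). The filled triangle is the 4L/PS-NA pool at 4 wks that stands apart, which is the highest Kcna5 value, 918, and the lowest Kcnj12 and Kcnip4 values, 631 and 1925.

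The number of members called in 4L/PS-NA cerebellum depended on single pools. It was 27 without 4L/PS-NA cerebellum 4 wks pool 1, which leaves the divergent pool 2 alone at that age, and 4 without 4L/PS-NA 12 wks pool 1 or WT 18 wks pool 2. It was 2 without 4L/PS-NA 12 wks pool 2, 4L/PS-NA 18 wks pool 1, WT 4 wks pool 2, WT 12 wks pool 1 or WT 18 wks pool 1. The actin ratio was 0.44 to 1.01 in these mutant pools and 0.42 to 0.59 in the WT pools, and with it as a covariate Kcng4, Kcnk2 and Kcnip4 stayed called. Markers moved in the same comparison. Of 7 Purkinje cell markers 4 were lower, with a list median of -1.12 and summed signals of 58998 to 395521 in mutants against 227239 to 276376 in WT, and 58998 to 267291 in mutants without pool 2 at 4 wks. Of 9 microglia markers 8 were higher, with sums of 38358 to 113300 against 16419 to 28973. None of 6 granule neuron markers or of 6 telencephalic markers was called, and the telencephalic sum was 2737 to 4772, or 2737 to 3985 without that pool, against 2316 to 3133. Their part in the subunits' values was not tested.

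The 3 members higher in 4L/PS-NA cerebellum are on the cerebral side of the adult WT region difference, with -1.92 for Kcnk2, -2.11 for Kcna5 and -4.37 for Kcnj4. The 4 lower members are on the cerebellar side, with 3.29 for Kcng4, 2.56 for Kcnj12, 1.12 for Kcnip1 and 0.93 for Kcnip4. Both comparisons use the same 6 WT cerebellar pools, so that a chance deviation of these pools would move a member in both. The sides were not counted over all genes called in 4L/PS-NA cerebellum, and the values are given side by side only. Kcna5 and Kcnj12 lost the call in 9 of 12 fits that left out 1 pool, and Kcnj4 in 7 of 12. In PS-/- cerebellum the 7 members were at 0.75 (Kcna5, adjusted p = 0.0788), 0.42 (Kcnk2), 0.40 (Kcnj4), 0.19 (Kcnip1), -0.09 (Kcnj12), -0.24 (Kcnip4) and -0.52 (Kcng4), none called. In PS-NA cerebellum Kcna5 was at 0.34, Kcnk2 at 0.17, Kcnj4 at 0.72, Kcnip1 at -0.23, Kcnj12 at -0.21 and Kcnip4 at -0.17, none called.

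In the cerebrum of 4L/PS-NA mice no member was called against WT, where 9 had an unadjusted p under 0.05 and 1.16% of all probe sets were called by limma. The auxiliary subunit Kcne1l (0.59, SE 0.15, adjusted p = 0.0724), the inward rectifier Kcnj16 (-0.59, SE 0.15, adjusted p = 0.074) and Kcnj11, the pore of ATP-sensitive channels (0.79, SE 0.22, adjusted p = 0.117), came closest. When 4L/PS-NA mice were set directly against PS-NA mice, from which they also differ in strain, no member was called in either region. In cerebellum 16 members had an unadjusted p under 0.05 and 4.49% of all probe sets were called. In cerebrum 9 members did and 2.62% were called. The smallest p values in cerebellum were those of Kcnk1 (-0.41, SE 0.13, adjusted p = 0.066), Kcna4 (0.65, SE 0.22, adjusted p = 0.0777) and Kcnmb4 (-1.47, SE 0.51, adjusted p = 0.0859). Without pool 2 at 4 wks they were at -0.26 (adjusted p = 0.354), 0.44 (adjusted p = 0.368) and -0.175 (adjusted p = 0.626). In cerebrum they were those of Kcnj11 (0.83, SE 0.26, adjusted p = 0.0738), Kcne1l (0.46, SE 0.17, adjusted p = 0.145) and Kcnk3 (0.77, SE 0.29, adjusted p = 0.181), which turned to -0.55 with the mean of its probe sets. In cerebellum the count was 18 without 4L/PS-NA 4 wks pool 1, which again leaves the divergent pool alone, and 0 without that pool itself.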

How the data were processed

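RNA of cerebellum and cerebrum, 3 mice to a pool and 2 pools per group, had been hybridized to 68 mouse arrays with 45101 probe sets. Per the labels, the authors computed the deposited linear signal intensities in GCOS (version 1.1, from the submitters' notes on processing) and scaled each array to a trimmed mean of 1500. RMA with a mixed-model ANOVA, as in the paper, needs the single-probe values and was not run. To each signal 16 was added, followed by log2 and by quantile normalization over 68 arrays, and 64 control probe sets were dropped. A mean per genotype, region and age was fitted with limma 3.58.1 (R 4.3.3, statmod 1.5.0) and an intensity trend, on 24 arrays for WT, 32 for PS-/- and for PS-NA, 24 for 4L/PS-NA with their WT, and 68 for 4L/PS-NA against PS-NA. Mutants were compared with WT as the mean of the differences at each age. P-values were adjusted over 45037 probe sets (Benjamini-Hochberg), and those under 0.05 were called. Probe sets were named through the platform annotation (of the 45037 tested, 34945 with 1 symbol, 932 with several and 9160 with none). The array number limits the precision.

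Named are up to 12 called members of the widest difference in each WT comparison (6 in each direction), every called member (or the 12 of smallest p) in each mutant comparison, the 3 of smallest p where none was called, members near Psap (there was none), and others given to describe a subfamily, chosen after their values were seen. The members and 9 gene lists (92 of 105 entries measured) were chosen with earlier results of these data known. The fit was tested on simulated data. Alternatives changed the scaling, pseudocount, filter, trend, array weights, actin ratio, probe set summary, replicate block, reference age, fit or pools. Scan batches were not analysed. The further allele of 4L/PS-NA mice and its locus are not reported here.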

Additional observations from a re-analysis of the deposited data

Results flagged for a closer look

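The course from birth to adulthood differed between cerebellum and cerebrum for 22 of 81 subunits by a test of the difference itself in WT mice. The 6 called as more upward in cerebellum (cerebellum minus cerebrum, log2) were Kcng4 at 3.02, Kcnk10 at 2.78, Kcnj12 at 2.57, Kcnk12 at 2.02, Kcnk3 at 1.49 and Kcnk1 at 1.16. Of the 16 more upward in cerebrum, the 6 of widest difference were Kcnf1 at -3.84, Kcnj4 at -3.76, Kcnv1 at -3.67, Kcnh5 at -3.28, Kcnt2 at -3.27 and Kcnh7 at -3.10. With the actin ratio as a covariate Kcng4, Kcnk10, Kcnj12, Kcnf1, Kcnh5 and Kcnt2 stayed called and the other 6 named here did not. Each value rests on 2 newborn pools per region. Each of the 6 named as more upward in cerebrum had a group of pools below the lowest array median. The sizes and order of these 6 values therefore depend on the constant added to the signal.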

How the results depend on the processing

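Of 62 calls of named members, 34 held under every alternative and 32 of these also without any 1 pool, and 15 were lost with the actin ratio alone. The direction turned in 1 case, Kcnmb4os2 in maturing cerebrum, at 0.049 with the actin ratio. The cause was not tested in any case below. Members called with the actin ratio numbered 22 (maturation, cerebellum), 9 (maturation, cerebrum), 11 (difference in maturation), 0 (cerebrum, 4 to 18 wks), 2 (PS-NA cerebellum) and 3 (4L/PS-NA cerebellum). Of all probe sets 5108, 988, 872, 41, 373 and 1069 were called with it, in the same order. With arrays centred on the median the members called numbered 1 (cerebrum, 4 to 18 wks), 3 (PS-/- cerebellum, 2 higher and 1 lower) and 0 (PS-NA cerebellum), and at birth 1 was higher and 2 lower in cerebellum. This scaling moved the median of all probe sets to -0.11 for maturation in cerebrum, 0.15 for the difference in maturation, -0.13 for regions at birth and 0.10 for PS-/- cerebellum. Without the intensity trend the counts were 1 (cerebrum, 4 to 18 wks), 0 (PS-/- cerebellum) and 3 (4L/PS-NA cerebellum). Array weights gave 2 (cerebellum, 4 to 18 wks), 0 (PS-/- cerebellum), 2 (4L/PS-NA cerebrum) and 1 (4L/PS-NA minus PS-NA, cerebellum). The mean of probe sets gave 5 (cerebrum, 4 to 18 wks), 0 (PS-/- cerebellum), 12 and 1 (4L/PS-NA cerebellum and cerebrum) and 4 (4L/PS-NA minus PS-NA, cerebellum). In 1 fit over all arrays the counts were 1 (cerebrum, 4 to 18 wks), 1 (regions at birth), 0 (PS-/- cerebellum), 0 (PS-NA cerebellum), and 15 and 1 (4L/PS-NA cerebellum and cerebrum). A pseudocount of 64 or the filter on dim probe sets gave 2 in PS-NA cerebellum, and WT 20 days as the reference gave 0 in PS-/- cerebellum.

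Leaving out 1 pool gave 32 to 38 calls for maturation in cerebellum, 28 to 39 in cerebrum, 14 to 23 for their difference, 0 to 0 from 4 to 18 wks in either region, 36 to 38 for adult regions and 0 to 7 for regions at birth. For mutants, cerebellum before cerebrum, it gave 0 to 2 and 0 to 1 in PS-/-, 1 to 3 and 0 to 1 in PS-NA, 2 to 27 and 0 to 1 in 4L/PS-NA, and 0 to 18 and 0 to 0 for 4L/PS-NA minus PS-NA. The single calls in PS-/- and PS-NA cerebrum came without WT 10 days pool 1 and without PS-NA 0 days pool 2. In PS-NA cerebellum 3 were called without WT 0 days pool 1 and 2 without PS-NA 0 days pool 2, 4 wks pool 2 or 18 wks pool 1, or WT 12 wks pool 2. The replicate block (pools of the same number in both regions) gave 25 in place of 22 for the difference in maturation and changed no other count, and same-numbered pools deviated together (correlation over 0.1) in 4 of 17 pairs, from -0.107 to 0.244, the highest in WT at 0 days. The sources used here do not say that pools of the same number held the same mice.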
